A study of Mus musculus with 12 samples.

Results

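The ephrin, semaphorin and guidance genes are 66 of the 38924 genes counted in the 12 libraries. They were picked by symbol, with earlier results of these data known. The set comprises 14 Eph receptors, 8 ephrins, 20 semaphorins, 9 plexins, 7 Slit and Robo genes and 8 netrins and netrin receptors. RNA was sequenced from cells of mouse embryos at stage E7.25, during gastrulation. All embryos came from the line Foxa2Cre:Rosa26-YFP, in which Cre recombinase driven by Foxa2 switches on yellow fluorescent protein (YFP), so that a cell stays YFP-positive if it or its ancestors expressed Foxa2. There were 4 types with 3 libraries each: cardiac mesoderm that was YFP-positive, which the labels call ventricular, cardiac mesoderm that was YFP-negative, called non-ventricular, endoderm sorted on EPCAM, and hematopoietic mesoderm sorted on KDR. Because every group carries the same alleles and no group lacks Cre, no effect of the alleles can be read from these data. Nothing says that the 3 libraries of a type came from separate embryos or litters, so p-values measure the spread between these libraries, which may be technical in part.

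These families were named for steering growing axons, and the same molecules guide migrating mesoderm and shape vessels and tissue borders. Ephrins are ligands held in the membrane, of the A class by a lipid anchor and of the B class by a transmembrane stretch. They bind Eph receptor tyrosine kinases on neighbouring cells, and both partners can signal. Semaphorins act through plexins, with neuropilins as partners for most of the secreted class 3 members. Slits bind Robo receptors, and netrin-1 binds Dcc, neogenin (Neo1) and the Unc5 receptors.

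Gene counts totalled 4472800 to 7888631 per library, and 3 counts corresponded to 0.380 to 0.671 CPM (counts scaled to a library total of 1000000). Levels below are CPM after trimmed-mean (TMM) scaling, in the order of replicates 1, 2 and 3, with the SD over n = 3 beside each mean, and each log2 difference is followed by ± its standard error. The labels were checked against marker lists. The 10 definitive endoderm markers summed to 1401 to 1693 CPM in endoderm and to 45.1 to 208 CPM elsewhere, and the 16 hematopoietic and endothelial markers to 1486 to 3146 CPM in hematopoietic mesoderm and 135 to 610 CPM elsewhere. The definitive endoderm list holds Epcam, the sort marker of endoderm, at 240, 204 and 217 CPM there. Its part in that sum follows from the sort. The 14 cardiac mesoderm markers summed to 1488 to 1906 CPM in the cardiac fractions and 126 to 219 CPM in endoderm. In hematopoietic mesoderm they summed to 886 to 1727 CPM, which overlapped with the cardiac fractions. The list holds Kdr, the sort marker of hematopoietic mesoderm, which was at 665, 700 and 965 CPM there. The overlap of the sums therefore does not show that the other markers fail to separate these types. Of the others, Gata4 and, in replicate 3, Hand1 (417 CPM) were also high in hematopoietic libraries. Nkx2-5 did not mark the cardiac fractions, where it was at most 9.05 CPM. It was at 49.4 CPM in hematopoietic replicate 1 and at 21.9, 0.906 and 25.2 CPM in endoderm. Tnnt2 was at 0 CPM in every YFP-positive library. Mesp1, Mesp2 and Tbx5 were at 3 counts or fewer in all 3 hematopoietic libraries. Pdgfra was at 204 to 387 CPM in the cardiac fractions and at 1.93, 31.5 and 48.3 CPM in hematopoietic mesoderm. The globin genes Hba-x and Hbb-y had 0 counts in all 12 libraries. In hematopoietic mesoderm the globin gene Hbb-bh1 was at 11.3, 7.27 and 0 CPM, Klf1 at 1.45, 21.8 and 0 CPM and Gata1 at 74.2, 46.6 and 0.210 CPM. The endoderm libraries also held visceral endoderm markers, at 1621 to 4767 CPM for 9 genes against 6.70 to 63.8 CPM elsewhere, and epiblast and neural ectoderm markers, at 551 to 603 CPM for 9 genes against 2.89 to 303 CPM. Some node and notochord markers were also present there: Foxj1 was at 88.3, 95.9 and 57.9 CPM in endoderm and at most 0.925 CPM elsewhere. Chrd was at 49.1 to 83.4 CPM against at most 0.693 CPM, and Noto at 10.6 to 25.4 CPM against at most 0.185 CPM. Shh was at 11.1 CPM in endoderm replicate 1 but at 0.259 and 0.238 CPM in replicates 2 and 3. Nog was at 1.59, 1.42 and 0.238 CPM in endoderm, against up to 10.4 CPM in YFP-positive cardiac mesoderm. The sum of 6 such markers, which includes T, overlapped between endoderm (240.3 to 434 CPM) and hematopoietic mesoderm (214 to 382 CPM). In bulk libraries, fewer cells of a kind and less RNA per cell cannot be told apart.

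Guidance genes took 0.255% to 0.278% of gene counts in hematopoietic mesoderm and 0.361% to 0.453% in the other 9 libraries, so the hematopoietic libraries were the lowest, with no overlap. Of the 66 genes, 54 passed the filter on low counts and were tested with edgeR's quasi-likelihood test, adjusted by the Benjamini-Hochberg method over all 14170 genes tested and called at an adjusted p under 0.05. In the test for any difference among the 4 types, 12 of the 54 were called, where 6.03% of all genes tested were. They were Robo1, Unc5c, Plxna4, Efnb2, Sema5a, Efna3, Plxna2, Ntn1, Epha7, Epha4, Epha2 and Epha1, with adjusted p from 0.000107 to 0.0407. Of these calls, Robo1, Unc5c, Plxna4, Efnb2 and Sema5a were kept whichever library was left out. Efna3 and Plxna2 were lost without endoderm replicate 1 or 3 (adjusted p 0.0507 to 0.0533 and 0.0541 to 0.0555) and Ntn1 without any endoderm library (0.0786 to 0.0862). Epha7, Epha4, Epha2 and Epha1 were lost without any endoderm library (0.107 to 0.144, 0.0822 to 0.0903, 0.125 to 0.133 and 0.128 to 0.155). They were also lost without some mesoderm libraries: Epha7 without YFP-positive replicate 3 (0.0511) or any YFP-negative library (0.0618 to 0.0933), and Epha4 without replicate 2 or 3 of either fraction (0.0707 to 0.0743 and 0.0618 to 0.0638) or hematopoietic replicate 3 (0.0557). Epha2 was lost without YFP-positive replicate 3 (0.0576), any YFP-negative library (0.0688 to 0.0720) or hematopoietic replicate 1 (0.0509), and Epha1 without any YFP-negative library (0.0658 to 0.0720) or hematopoietic replicate 1 or 2 (0.0594 to 0.0636).

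Between the mean of the cardiac mesoderm fractions and endoderm, 7 were called, 3 higher and 4 lower in cardiac mesoderm (background 4.52%, or 1.34% higher and 3.18% lower). The mean of the fractions differed from hematopoietic mesoderm in 9, 8 higher and 1 lower (background 2.58%, or 1.26% and 1.32%). Endoderm differed from hematopoietic mesoderm in 10, 8 higher and 2 lower in endoderm (background 5.65%, or 3.23% and 2.42%). DESeq2 called more, both here and over all genes: 22 among the 4 types (background 14.9%), 13 against endoderm (6.66%), and 16 and 19 for cardiac mesoderm and endoderm against hematopoietic mesoderm (12.4% and 14.4%). In simulated counts DESeq2 also called more unchanged genes than edgeR, 110 against 2 of 13970 among the 4 types. The 5 comparisons share libraries, and 16 of the 54 genes were called by edgeR in at least 1 of the 5, as were 9.11% of all genes. Leaving out 1 library moved several counts: to 5, 7 and 5 in the test over 4 types without endoderm replicate 1, 2 or 3, to 3 each in cardiac mesoderm against endoderm, and to 3, 4 and 3 in endoderm against hematopoietic mesoderm. Without YFP-negative replicate 1 the count of calls against endoderm was 4, and without YFP-negative replicate 2 or 3 the count against hematopoietic mesoderm was 5. Libraries did not overlap between cardiac mesoderm and endoderm for 16 genes (background 14.9%), 6 higher (5.21%) and 10 lower (9.67%) in cardiac mesoderm, and between cardiac and hematopoietic mesoderm for 14 (7.69%), 13 higher (4.59%) and 1 lower (3.1%). The median log2 fold change of cardiac mesoderm against endoderm was -0.19 over the 54 genes and -0.02 over all genes tested.

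**Figure D1:**
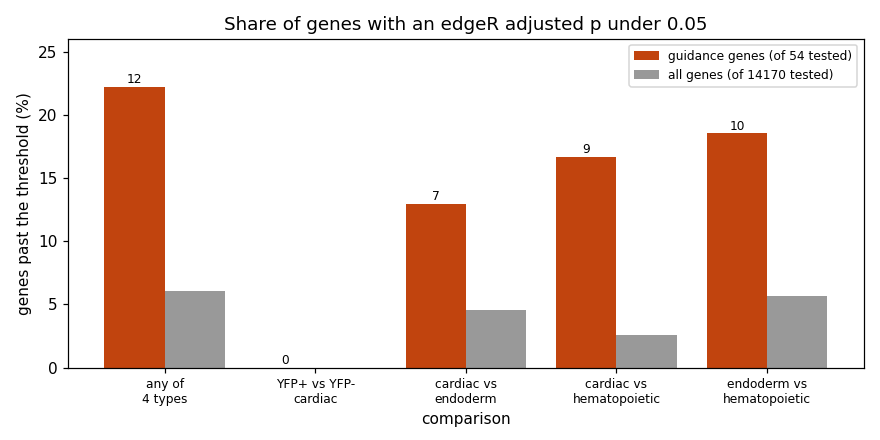
Share of genes past an edgeR adjusted p of 0.05 in each of the 5 comparisons (x axis), in percent of the genes tested (y axis), for the 54 guidance genes tested and for all 14170. Numbers over the red bars count guidance genes: 12, 0, 7, 9 and 10.

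**Figure D2:**
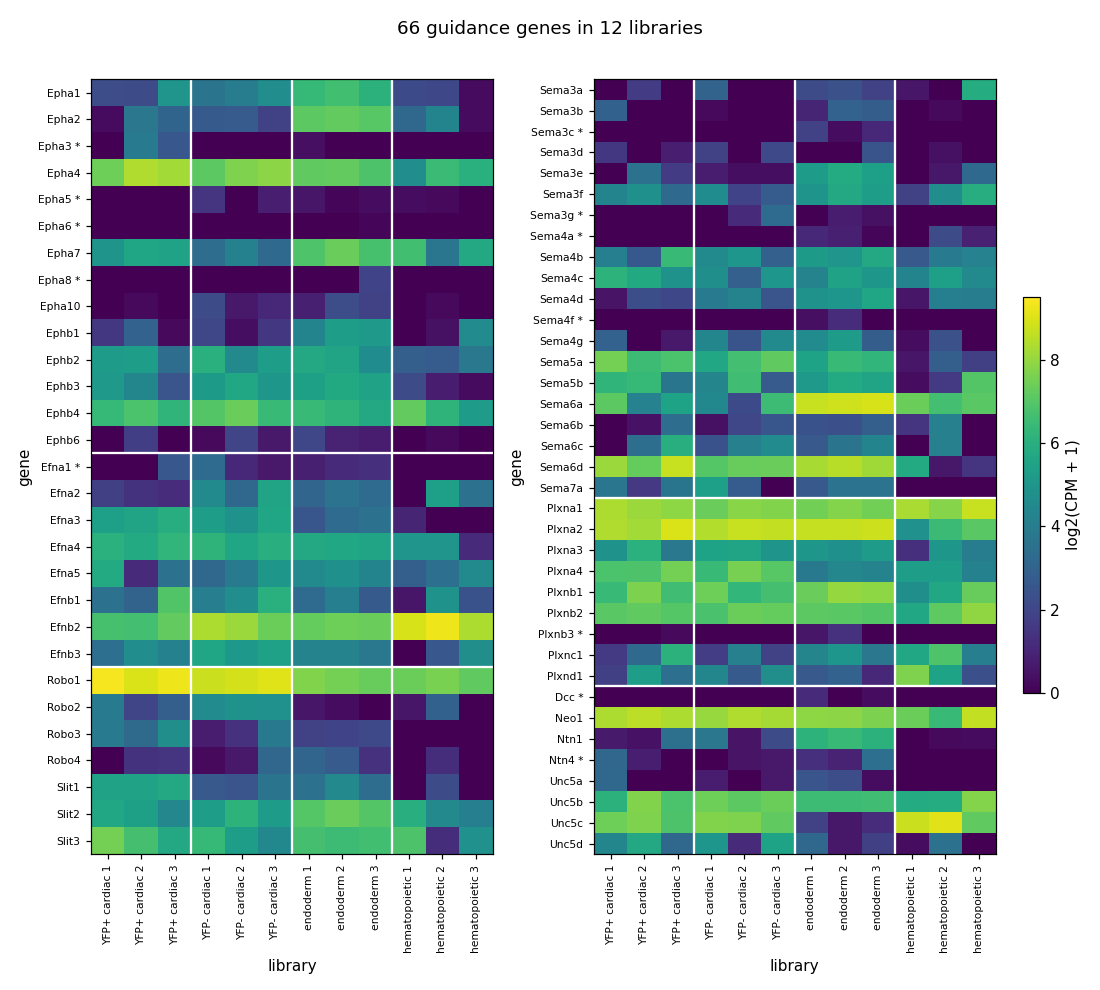
Level of each of the 66 guidance genes (rows, grouped by family) in each of the 12 libraries (columns), as log2(CPM + 1), from dark (0) to yellow. White lines separate the types and families, and an asterisk marks the 12 genes that did not pass the filter. Robo1, Neo1, Plxna1 and Plxna2 are bright across the cardiac mesoderm columns, while Unc5c is dark in endoderm and Sema5a in hematopoietic mesoderm.

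The start regions of 4 of the called genes with unlike patterns are shown for context, as 300 bases from 250 before to 50 after the RefSeq transcript start (GRCm38.p6, the assembly also known as mm10). RefSeq windows were found for 56 of the 66 genes. Capitals mark the letters of any of 5 short motifs, each searched on both strands. The motif of GATA factors was searched as AGATAA and that of ETS factors as GGAAGT. Forkhead factors were searched as TGTTTAC, RBPJ, the factor of Notch signalling, as TGGGAA, and SOX factors as ATTGTT.
Unc5c, nearly absent from endoderm, chr3:141465314-141465613, plus strand: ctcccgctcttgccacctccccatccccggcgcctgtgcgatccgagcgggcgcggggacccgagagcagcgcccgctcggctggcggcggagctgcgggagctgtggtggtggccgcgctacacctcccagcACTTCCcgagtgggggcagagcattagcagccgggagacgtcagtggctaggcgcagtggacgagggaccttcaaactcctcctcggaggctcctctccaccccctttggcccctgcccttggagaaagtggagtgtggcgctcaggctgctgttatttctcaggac
Epha2, highest in endoderm, chr4:141300971-141301270, plus strand: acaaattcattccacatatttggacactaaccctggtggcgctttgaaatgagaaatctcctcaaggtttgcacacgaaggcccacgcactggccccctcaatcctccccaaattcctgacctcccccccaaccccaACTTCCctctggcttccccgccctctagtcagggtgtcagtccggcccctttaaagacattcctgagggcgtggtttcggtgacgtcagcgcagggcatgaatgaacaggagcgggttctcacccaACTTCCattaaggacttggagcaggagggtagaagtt
Efnb2, highest in hematopoietic mesoderm, chr8:8661193-8661492, minus strand: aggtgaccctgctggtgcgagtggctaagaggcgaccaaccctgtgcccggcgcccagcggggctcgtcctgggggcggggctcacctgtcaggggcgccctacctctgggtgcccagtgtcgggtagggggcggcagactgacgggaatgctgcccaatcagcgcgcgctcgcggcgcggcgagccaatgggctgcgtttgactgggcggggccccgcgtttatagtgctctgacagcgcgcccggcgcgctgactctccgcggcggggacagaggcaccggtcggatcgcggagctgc
Robo1, highest in cardiac mesoderm, chr16:72662899-72663198, plus strand: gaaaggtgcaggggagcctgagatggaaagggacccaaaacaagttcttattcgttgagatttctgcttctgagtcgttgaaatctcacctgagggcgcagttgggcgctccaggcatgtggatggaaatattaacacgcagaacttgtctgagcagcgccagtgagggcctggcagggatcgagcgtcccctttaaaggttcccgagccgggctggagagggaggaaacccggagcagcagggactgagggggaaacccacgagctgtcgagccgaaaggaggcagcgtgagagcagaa
The capitals are ETS letters on the reverse strand, 1 match in Unc5c and 2 in Epha2, so the letters stand at genes with opposite patterns. Efnb2 and Robo1 hold none of the 5 motifs in this window. The Robo1 and Unc5c windows lie inside the annotated spans of these genes. The ETS letters occur in 23.8% of the 32851 windows in the RefSeq table and in 13 of the 72 windows of guidance genes. The GATA, forkhead, RBPJ and SOX letters occur in 11.2%, 3.65%, 25.6% and 10.7% of all windows, and in 3, 0, 16 and 3 of the 72. Windows of guidance genes had a median GC content of 64.3%, against 52.7% over all windows.

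Netrin-1 and its receptor Unc5c had opposite patterns. Ntn1 (ENSMUSG00000020902.6, chromosome 11, 68209364 to 68400823, minus strand, GRCm38), a secreted laminin-related ligand, was at 70.3, 83.9 and 67.9 CPM in endoderm. It was at 0.624, 0.365 and 10.4 CPM in YFP-positive and 12.7, 0.420 and 3.48 CPM in YFP-negative cardiac mesoderm, and at 0, 0.173 and 0.210 CPM in hematopoietic mesoderm, which held 2 reads in all. Every endoderm library was above every mesoderm library. Cardiac mesoderm differed from endoderm by -4.01 ± 1.06 on the log2 scale (edgeR adjusted p = 0.0495), and endoderm exceeded hematopoietic mesoderm 544-fold by pooled counts (95% exact interval 150.3 to 4495, counting error only, edgeR adjusted p = 0.0172). The first call was lost in 8 of 9 fits that left out 1 library: without YFP-positive replicate 1 or 2 (0.0814 to 0.0874), any YFP-negative library (0.0545 to 0.110) or any endoderm library (0.140 to 0.156). It was also lost with a minimum mean of 5 CPM (0.0535). The difference from endoderm was -5.46 without YFP-positive replicate 3, -4.79 without YFP-negative replicate 1, -5.07 under limma voom and -4.74 with the replicate block. The call against hematopoietic mesoderm was lost without any endoderm library (0.0541 to 0.0606) or hematopoietic replicate 1 (0.0528).

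Unc5c (ENSMUSG00000059921.9, chromosome 3, 141465216 to 141834924, plus strand), a receptor that mediates repulsion from netrin, was at 2.54, 0.518 and 1.31 CPM in endoderm. Its level was 166, 199.6 and 113 CPM in YFP-positive cardiac mesoderm, 206, 203 and 146 CPM in YFP-negative cardiac mesoderm and 429, 542 and 143 CPM in hematopoietic mesoderm. The lowest mesoderm library was far above the highest endoderm library, while the 3 mesoderm types overlapped. Cardiac mesoderm differed from endoderm by 6.90 ± 0.60 on the log2 scale (edgeR adjusted p = 5.8e-05), and endoderm from hematopoietic mesoderm by -8.01 ± 0.64 (edgeR adjusted p = 2.59e-05). Both calls held in every alternative run, with adjusted p of at most 0.00110 and 0.00447. Without endoderm replicate 1 the first difference was 7.49. An antisense transcript overlaps 118 bases of its exons. Cardiac and hematopoietic mesoderm did not pass the test (-1.11 ± 0.38, edgeR adjusted p = 0.128).

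No other netrin receptor was called. Neo1, a relative of Dcc that also binds repulsive guidance molecules, took the most reads of this group by mean CPM. It was at 325, 374 and 323 CPM in YFP-positive cardiac mesoderm, 261, 333 and 294 CPM in YFP-negative cardiac mesoderm, 234, 228 and 196 CPM in endoderm and 163, 82.96 and 394 CPM in hematopoietic mesoderm. Hematopoietic replicates 2 and 3 were the lowest and highest of the 12, and no comparison passed (edgeR adjusted p from 0.369 to 0.986). Unc5b, better known from vessels, averaged 128 ± 70.8, 156 ± 15.6, 91.7 ± 3.50 and 109.6 ± 91.2 CPM in the same order of types and did not pass either (edgeR adjusted p from 0.641 to 0.979). Dcc had at most 1.27 CPM in any library and was not tested. Per kilobase of exon, Neo1 averaged 39.1, 33.98, 25.2 and 24.5 CPM per kb over the types, the highest level per length of the netrin receptors in every type.

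Robo1 took the most reads of the guidance genes in both cardiac fractions. Robo1 (ENSMUSG00000022883.10, chromosome 16, 72308306 to 73046095, plus strand), a Slit receptor, was at 662, 504 and 605 CPM in YFP-positive and 425, 471 and 530.3 CPM in YFP-negative cardiac mesoderm. Endoderm libraries were at 205, 184 and 154 CPM and hematopoietic libraries at 164, 192 and 145 CPM. All 6 cardiac libraries exceeded all 6 others, and the 2 other types overlapped. Cardiac mesoderm differed by 1.55 ± 0.16 on the log2 scale from endoderm (edgeR adjusted p = 0.00015) and by 1.67 ± 0.16 from hematopoietic mesoderm (edgeR adjusted p = 0.00036). Both held in every alternative run, with adjusted p of at most 0.00227 and 0.0126. By p the gene ranked 20 and 4 among the 14170 genes of these comparisons. Per kilobase of exon it averaged 35.7 and 28.8 CPM per kb in the fractions, below Neo1.

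Robo3, best known from commissural axons, had 0 counts in all 3 hematopoietic libraries. It was at 13.7, 8.75 and 24.98 CPM in YFP-positive and 0.670, 1.54 and 13.5 CPM in YFP-negative cardiac mesoderm and at 2.70, 2.72 and 3.33 CPM in endoderm. Against a floor of 3 counts over the hematopoietic libraries, it was at least 49.0-fold higher in cardiac mesoderm (edgeR adjusted p = 0.0410) and at least 14.4-fold higher in endoderm (edgeR adjusted p = 0.0498). The endoderm value rests on 66 reads over 3 libraries. The first was lost without any YFP-positive (0.0523 to 0.0623) or hematopoietic library (0.0546 to 0.0791) and without YFP-negative replicate 2 or 3 (0.0589 to 0.0683), under limma voom (0.108) and with only the types compared fitted (0.115). The second was lost without any endoderm (0.126 to 0.136) or hematopoietic library (0.0779 to 0.106), with RLE scaling (0.0523), with no filter (0.0788), with a minimum mean of 5 CPM (0.0501) and under limma voom (0.0731).

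Robo2 and the endothelial receptor Robo4 were not called. Robo2 was at 13.7, 2.92 and 6.29 CPM in YFP-positive and 22.8, 28.2 and 27.1 CPM in YFP-negative cardiac mesoderm, at 0.477, 0.259 and 0 CPM in endoderm and at 0.482, 6.75 and 0 CPM in hematopoietic mesoderm. Its cardiac libraries did not overlap with endoderm, with a log2 difference of 5.77 ± 1.74 that missed the threshold (edgeR adjusted p = 0.0895). Robo4 stayed at or below 7.82 CPM in all libraries, hematopoietic ones included.

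Each Slit ligand had its own pattern, and none passed a test. Slit1 was at 43.1, 43.2 and 52.7 CPM in YFP-positive but 5.36, 4.62 and 11.6 CPM in YFP-negative cardiac mesoderm, with 10.7, 21.4 and 9.51 CPM in endoderm and 0, 3.64 and 0 CPM in hematopoietic mesoderm. Its YFP-positive libraries stood above the other 9, yet the difference between the fractions had an edgeR adjusted p of 0.681 (log2 difference 2.68 ± 1.30). Slit2 was at 127, 158 and 124 CPM in endoderm, above every other library, the highest of which had 69.4 CPM, with log2 differences of -1.68 ± 0.45 for cardiac mesoderm against endoderm and 2.06 ± 0.57 for endoderm against hematopoietic mesoderm (edgeR adjusted p = 0.0560 and 0.0515). Slit3 ranged from 20.6 to 180.0 CPM in cardiac mesoderm and was at 114, 1.39 and 26.7 CPM in hematopoietic mesoderm, highest in replicate 1 and lowest in replicate 2.

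**Figure D3:**
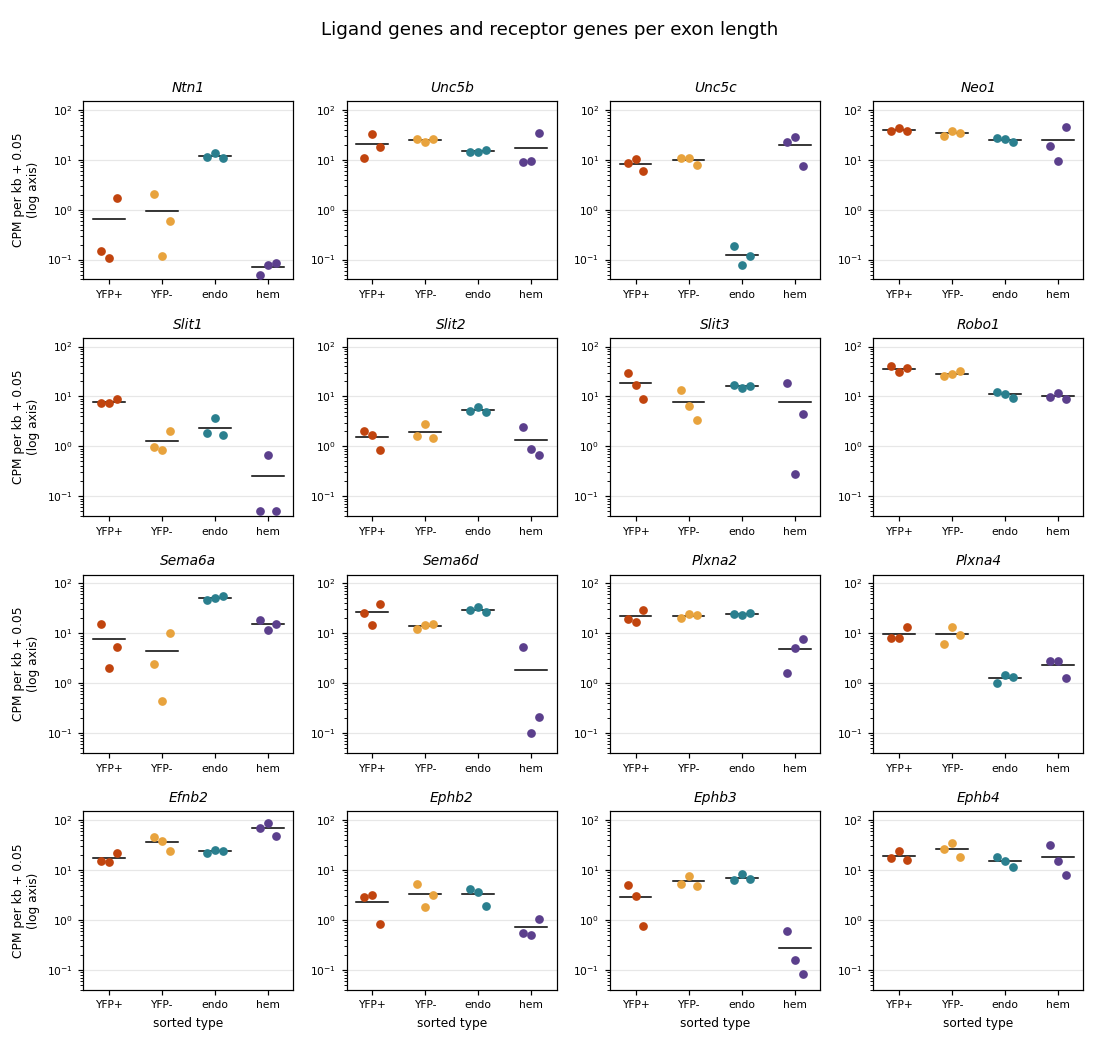
Ligand and receptor genes of 4 pathways (rows: netrin, Slit and Robo, class 6 semaphorins with plexin-A, ephrin-B2 with its receptors) by sorted type (x axis: YFP-positive and YFP-negative cardiac mesoderm, endoderm, hematopoietic mesoderm). Each point is 1 library, in CPM per kilobase of exon plus 0.05 on a log axis, and bars are means of 3. Ntn1, Slit2 and Sema6a are highest in endoderm, Robo1 and Plxna4 in cardiac mesoderm, and Unc5c and Efnb2 in hematopoietic mesoderm.

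Of the semaphorins, Sema5a was called as low in hematopoietic mesoderm, Sema6a as high in endoderm against cardiac mesoderm, and Sema6d as higher in endoderm than in hematopoietic mesoderm. Sema5a (ENSMUSG00000022231.9, chromosome 15, 32244810 to 32696341, plus strand), a transmembrane semaphorin with thrombospondin repeats, was at 0.482, 6.41 and 2.52 CPM in hematopoietic mesoderm. It was at 183, 89.7 and 110.5 CPM in YFP-positive cardiac mesoderm, 49.4, 100.2 and 142 CPM in YFP-negative cardiac mesoderm and 44.5, 84.03 and 75.7 CPM in endoderm. All 9 other libraries exceeded the hematopoietic ones. The log2 difference from hematopoietic mesoderm was 5.11 ± 0.74 in cardiac mesoderm (edgeR adjusted p = 0.00447) and 4.40 ± 0.74 in endoderm (edgeR adjusted p = 0.00542). Both calls were kept in all fits that left out 1 library but not under limma voom with quality weights (adjusted p = 0.190 and 0.100). Without hematopoietic replicate 2 the differences were 6.17 and 5.46.

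Sema6d, a ligand of plexin-A1, took the most reads of the semaphorins by mean CPM. It was at 266, 152 and 411 CPM in YFP-positive cardiac mesoderm, 126, 156 and 161 CPM in YFP-negative cardiac mesoderm and 303, 358 and 279.5 CPM in endoderm. Hematopoietic libraries were at 55.7, 0.520 and 1.68 CPM, all below the others but unequal among themselves. Endoderm exceeded hematopoietic mesoderm by 4.04 ± 1.08 on the log2 scale (edgeR adjusted p = 0.0467). The size rests on hematopoietic replicate 1, without which it was 8.18, and it was 6.71 under limma voom and 4.81 with the replicate number as a block. The call was lost without any endoderm library (0.120 to 0.127) or without hematopoietic replicate 3 (0.0742), and with only the types compared fitted (0.139). The difference between cardiac and hematopoietic mesoderm was not called (3.41 ± 1.00, edgeR adjusted p = 0.0849).

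Sema6a, a ligand of plexin-A2 and plexin-A4, was highest in endoderm, at 413, 445 and 486 CPM. It was at 135, 17.3 and 45.2 CPM in YFP-positive cardiac mesoderm, 20.6, 3.36 and 90.4 CPM in YFP-negative cardiac mesoderm and 162, 100.3 and 135 CPM in hematopoietic mesoderm. The endoderm libraries were close together, whereas the cardiac libraries spread widely. Cardiac mesoderm differed from endoderm by -3.16 ± 0.70 on the log2 scale (edgeR adjusted p = 0.0220), a call lost without any endoderm library (0.0684 to 0.0855), YFP-positive replicate 3 (0.0553) or YFP-negative replicate 1 (0.0632). The difference was -4.03 without YFP-negative replicate 3 and -3.92 under limma voom. Endoderm and hematopoietic mesoderm did not pass (1.76 ± 0.85, edgeR adjusted p = 0.243).

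The other 13 semaphorins tested were not called. Sema3e, the ligand of plexin-D1, was at 36.6, 56.6 and 39.7 CPM in endoderm and at 0, 11.1 and 2.22 CPM in YFP-positive cardiac mesoderm, 0.670, 0.280 and 0.290 CPM in YFP-negative cardiac mesoderm and 0, 0.520 and 8.61 CPM in hematopoietic mesoderm. The log2 difference of cardiac mesoderm from endoderm was -4.996 ± 1.38 (edgeR adjusted p = 0.0624). Some values came from single libraries: hematopoietic replicate 3 held 57.96 CPM of Sema3a and 123 CPM of Sema5b, where the other hematopoietic libraries had at most 0.482 and 2.08 CPM. Sema7a, which is anchored by a lipid, had 0 counts in all hematopoietic libraries and 5.25, 11.1 and 11.3 CPM in endoderm (edgeR adjusted p = 0.0642).

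Among plexins, which are the semaphorin receptors, 2 of the 4 A-type genes were called and no B-, C- or D-type gene was. Plxna2 (ENSMUSG00000026640.6, chromosome 1, 194618218 to 194816869, plus strand) took the most reads of the plexins by mean CPM. It was at 26.7, 87.3 and 133 CPM in hematopoietic mesoderm, against 333, 291 and 497 CPM in YFP-positive cardiac mesoderm, 342, 412 and 391 CPM in YFP-negative cardiac mesoderm and 407, 403 and 438 CPM in endoderm. The hematopoietic libraries lay below the other 9, which overlapped with one another. The log2 difference from hematopoietic mesoderm was 2.20 ± 0.38 in cardiac mesoderm (edgeR adjusted p = 0.0122) and 2.34 ± 0.41 in endoderm (edgeR adjusted p = 0.00771), and both calls held in every alternative run, with adjusted p of at most 0.0449 and 0.0314.

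Plxna4 (ENSMUSG00000029765.10, chromosome 6, 32144268 to 32588192, minus strand) was highest in cardiac mesoderm. It was at 112, 115 and 183 CPM in the YFP-positive and 86.1, 188 and 131 CPM in the YFP-negative fraction, at 13.4, 20.2 and 17.8 CPM in endoderm and at 38.1, 38.4 and 17.2 CPM in hematopoietic mesoderm. All 6 cardiac libraries exceeded all others. The log2 difference was 2.98 ± 0.43 against endoderm (edgeR adjusted p = 0.00193) and 2.12 ± 0.41 against hematopoietic mesoderm (edgeR adjusted p = 0.0197). The first call held in every alternative fit, while the second was lost without YFP-negative replicate 2 or 3 (0.0507 to 0.0534), under limma voom (0.198) and with only the types compared fitted (0.0535). A 110-base stretch of its exons overlaps an antisense transcript, and the counting's strand setting is not given in the sources used here.

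The remaining plexins were spread over all types. Plxna1 averaged 275 ± 41.3, 197 ± 34.6, 188 ± 21.2 and 314 ± 95.2 CPM in YFP-positive and YFP-negative cardiac mesoderm, endoderm and hematopoietic mesoderm, with edgeR adjusted p from 0.0779 to 0.679. Plxnb2 averaged 134 ± 9.27, 142 ± 29.3, 131 ± 7.47 and 146 ± 96.5 CPM (edgeR adjusted p of at least 0.883). Plxnd1, a receptor of endothelial cells, was at 202, 44.9 and 3.99 CPM in hematopoietic mesoderm, a wide spread, and no difference was called (edgeR adjusted p = 0.210 against cardiac mesoderm and 0.0840 against endoderm). Plxnb3, a receptor of Sema5a, had at most 1.55 CPM and was not tested.

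Of the 7 ephrins tested, Efnb2 and Efna3 were called, beside 9.11% of all genes in at least 1 comparison, both for differences from hematopoietic mesoderm. Efnb2 (ENSMUSG00000001300.9, chromosome 8, 8617434 to 8661242, minus strand), a transmembrane ligand known from arterial endothelium, was at 485, 608 and 325 CPM in that type. It was at 105, 101 and 147 CPM in YFP-positive cardiac mesoderm, 317, 266 and 165 CPM in YFP-negative cardiac mesoderm and 153, 170.3 and 162 CPM in endoderm. All hematopoietic libraries exceeded the other 9. Cardiac mesoderm differed from hematopoietic mesoderm by -1.46 ± 0.23 on the log2 scale (edgeR adjusted p = 0.00686), a call kept in every alternative run (at most 0.0284). Endoderm differed by -1.55 ± 0.28 (edgeR adjusted p = 0.00799), which was lost without endoderm replicate 1 or 3 (0.0522 to 0.0540). Hematopoietic and endothelial markers were also highest in these libraries, at 1486 to 3146 CPM, and their part in the Efnb2 level was not tested.

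Efna3 (ENSMUSG00000028039.7, chromosome 3, 89313899 to 89322965, minus strand), an A-class ephrin, was lowest in hematopoietic mesoderm. It was at 40.2, 45.9 and 59.6 CPM in YFP-positive cardiac mesoderm, 38.9, 28.2 and 46.5 CPM in YFP-negative cardiac mesoderm, 4.77, 8.93 and 10.8 CPM in endoderm and 0.964, 0 and 0 CPM in hematopoietic mesoderm. The 3 levels did not overlap: cardiac libraries were above endoderm, and endoderm above hematopoietic mesoderm. The log2 difference from hematopoietic mesoderm was 7.07 ± 1.22 in cardiac mesoderm (edgeR adjusted p = 0.0118, at most 0.0431 in the alternatives) and 4.69 ± 1.15 in endoderm (edgeR adjusted p = 0.0358). The 4 hematopoietic reads were all in replicate 1. Without that library the fitted differences were 11.07 and 8.68 against 0 reads, which are no measured size, and without replicate 2 they were 6.46 and 4.07. Under limma voom they were 7.72 and 5.28. The endoderm call was lost without any endoderm library (0.0827 to 0.117) and without hematopoietic replicate 2 or 3 (0.0531 to 0.0555), and with only the types compared fitted (0.133). Cardiac mesoderm against endoderm did not pass (2.39 ± 0.90, edgeR adjusted p = 0.189). Its exons share 344 bases with an antisense gene.

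Of the other ephrins tested, none was called. Efna4 averaged 65.4 ± 10.2, 60.7 ± 12.2, 49.9 ± 3.68 and 20.2 ± 16.4 CPM over the 4 types in the same order. Efnb1, which is X-linked, was uneven within types, at 10.6, 7.11 and 119.5 CPM in YFP-positive cardiac mesoderm. Per kilobase of exon, Efnb2 averaged 68.9 CPM per kb in hematopoietic mesoderm, the highest mean of any guidance gene in any type, and Efna4 averaged 40.9 in YFP-positive cardiac mesoderm.

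Of the 10 Eph receptors tested, 5 were called in at least 1 comparison, with at most 4 in any one (9.11% of all genes were called in at least 1): Epha2, Epha1 and Epha7, highest in endoderm, and Epha4 and Ephb3, lowest in hematopoietic mesoderm. Epha2 (ENSMUSG00000006445.3, chromosome 4, 141301240 to 141329384, plus strand), a receptor of epithelial cells, was at 137, 146 and 129 CPM in endoderm. It was at 0.208, 12.8 and 7.40 CPM in YFP-positive cardiac mesoderm, 5.53, 5.60 and 2.61 CPM in YFP-negative cardiac mesoderm and 7.95, 18.4 and 0.210 CPM in hematopoietic mesoderm. Every endoderm library was above every other library. Cardiac mesoderm differed from endoderm by -4.62 ± 0.97 on the log2 scale (edgeR adjusted p = 0.0174), and endoderm against hematopoietic mesoderm did not pass (3.95 ± 1.25, edgeR adjusted p = 0.0772). The call was lost without any endoderm (0.0691 to 0.0769) or YFP-negative library (0.0528 to 0.0542).

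Epha1 and Epha7 were also highest in endoderm by mean. Epha1 was at 81.6, 98.5 and 68.6 CPM in endoderm, 3.75, 3.46 and 29.8 CPM in YFP-positive cardiac mesoderm, 11.7, 14.7 and 24.2 CPM in YFP-negative cardiac mesoderm and 3.37, 3.12 and 0.210 CPM in hematopoietic mesoderm. Endoderm exceeded hematopoietic mesoderm by 5.20 ± 1.14 on the log2 scale (edgeR adjusted p = 0.0241), a call lost without any endoderm library (0.0715 to 0.0907) or without hematopoietic replicate 1 (0.0507). Epha7 was at 117, 159 and 106 CPM in endoderm, 29.3, 46.8 and 42.9 CPM in YFP-positive cardiac mesoderm, 9.55, 17.1 and 8.55 CPM in YFP-negative cardiac mesoderm and 97.3, 12.1 and 51.9 CPM in hematopoietic mesoderm. For Epha7 the hematopoietic libraries overlapped with cardiac mesoderm. Cardiac mesoderm differed from endoderm by -2.56 ± 0.51 (edgeR adjusted p = 0.0136), which was lost without any endoderm library (0.0510 to 0.0792). The genes Epha1, Epha2, Epha7, Ntn1 and Sema6a shared their highest type, endoderm, with 3 kinds of markers. These were visceral endoderm markers (1621 to 4767 CPM), epiblast and neural ectoderm markers (551 to 603 CPM) and the node and notochord markers Foxj1, Chrd and Noto. Within endoderm each visceral endoderm marker was lowest in replicate 2 (Cubn at 1497, 309 and 743 CPM). Epha1, Epha2, Epha7, Ntn1, Foxj1, Chrd and Noto were highest in that replicate, and Sema6a was not. The other listed node and notochord markers were mixed. Shh (11.1, 0.259 and 0.238 CPM) and Nog (1.59, 1.42 and 0.238 CPM) were highest in endoderm replicate 1. T was highest in replicate 2 (196, 228 and 105 CPM), but was at 261, 213 and 374 CPM in hematopoietic mesoderm. The part of these cell types in the levels was not tested. Exons of Epha1 share 236 bases with Zyx on the opposite strand.

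Epha4 (ENSMUSG00000026235.8, chromosome 1, 77367185 to 77515088, minus strand), which binds ephrins of both classes, took the most reads of the Eph receptors by mean CPM. It was at 166, 332 and 292 CPM in YFP-positive cardiac mesoderm, 137, 201 and 229 CPM in YFP-negative cardiac mesoderm, 144, 146 and 114 CPM in endoderm and 24.1, 88.2 and 64.3 CPM in hematopoietic mesoderm. Hematopoietic libraries were the lowest, with no overlap. Cardiac mesoderm exceeded hematopoietic mesoderm by 1.92 ± 0.38 (edgeR adjusted p = 0.0214), a call lost without YFP-negative replicate 2 or 3 (0.0508 to 0.0547), under limma voom (0.171) and with only the types compared fitted (0.0682).

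Ephb3, a B-type receptor, was at 3.61, 0.693 and 0.210 CPM in hematopoietic mesoderm, against 33.1, 19.5 and 4.63 CPM in YFP-positive cardiac mesoderm, 35.02, 51.1 and 32.01 CPM in YFP-negative cardiac mesoderm and 41.04, 53.7 and 42.9 CPM in endoderm. The hematopoietic libraries were again the lowest, though YFP-positive replicate 3 came near them. Relative to hematopoietic mesoderm the log2 difference was 4.19 ± 0.99 in cardiac mesoderm (edgeR adjusted p = 0.0450) and 4.94 ± 1.07 in endoderm (edgeR adjusted p = 0.0227). The first call was lost without YFP-positive replicate 1 or 2 (0.0591 to 0.0621), any YFP-negative library (0.0846 to 0.0918) or hematopoietic replicate 2 or 3 (0.0562 to 0.0732), and under limma voom (0.158) and with only the types compared fitted (0.147). The second was lost without any endoderm library (0.0685 to 0.0818). Without hematopoietic replicate 1 the differences were 5.84 and 6.58. Ephb4, the venous partner of ephrin-B2, averaged 88.6 ± 19.99, 122 ± 37.2, 69.2 ± 15.7 and 84.6 ± 56.5 CPM in YFP-positive and YFP-negative cardiac mesoderm, endoderm and hematopoietic mesoderm, and no comparison passed (edgeR adjusted p of at least 0.636).

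**Figure D4:**
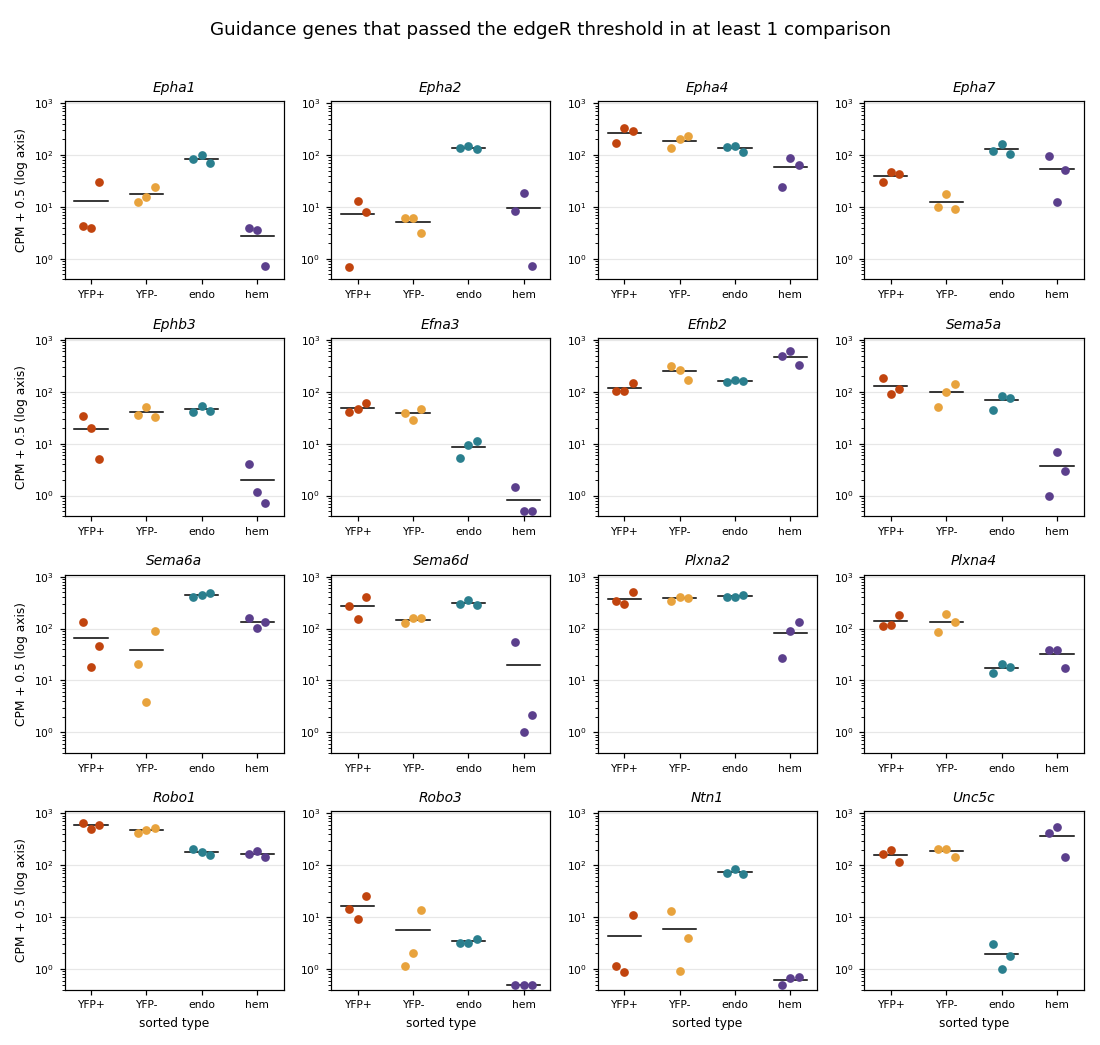
The 16 guidance genes that passed the edgeR threshold in at least 1 of the 5 comparisons, in CPM plus 0.5 on a log axis, by sorted type (x axis: YFP-positive and YFP-negative cardiac mesoderm, endoderm, hematopoietic mesoderm). Each point is 1 library and each bar the mean of 3. Sema5a, Plxna2, Efna3, Ephb3 and Epha4 are lowest in hematopoietic mesoderm, and Unc5c is lowest in endoderm.

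Between YFP-positive and YFP-negative cardiac mesoderm, 0 of the 54 guidance genes were called by edgeR (background 0.0%), 5 had an unadjusted p under 0.05 (beside 7.49% of all genes), and DESeq2 called 1 (background 0.888%). The median log2 fold change was 0.10 over the 54 genes and 0.03 over all genes tested. The fractions' libraries did not overlap in 9 of the 54 genes (background 12.1%), with 3 higher (5.04%) and 6 lower (7.04%) in the YFP-positive fraction. Efnb2 had the lowest p of the family. It averaged 118 ± 25.5 CPM in the YFP-positive and 249.5 ± 77.4 CPM in the YFP-negative fraction (log2 difference -1.08 ± 0.27, edgeR adjusted p = 0.626, range over the alternatives 0.0267 to 0.858), and it was the gene that DESeq2 called. In counts simulated without a difference between the fractions, DESeq2 called 37 of 13970 unchanged genes in this comparison and edgeR 0. Epha7 followed, with 39.7 ± 9.18 against 11.7 ± 4.67 CPM and an edgeR adjusted p of 0.626. Epha10 was near the detection limit, at 0, 0.182 and 0 and 3.52, 0.560 and 1.16 CPM, or 1 and 33 reads. With 3 libraries a side these values do not show that the fractions are alike.

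Against hematopoietic mesoderm most calls were of higher levels in the other types. The median log2 fold change of the 54 genes was 1.30 for cardiac and 1.28 for endoderm against hematopoietic mesoderm, where the median over all genes was 0.02 and 0.07. Robo3, Sema7a and Unc5a had 0 counts in hematopoietic mesoderm, and setting them at the bound that 3 counts allow leaves both medians as they are, since each bound lies above them. Endoderm libraries lay above the hematopoietic ones without overlap for 27 genes (background 23.4%) and below them for 3 (10.9%), or 30 in all (34.3%). Hematopoietic libraries had 12484 to 14491 genes with a count and 40 to 51 guidance genes, fewer than endoderm (18547 to 18618 and 61 to 62) and YFP-negative cardiac mesoderm (15356 to 16078 and 53 to 56). They overlapped in both with YFP-positive cardiac mesoderm (13671 to 14677 and 48 to 52). Of 31 guidance genes that reached 100 counts in a hematopoietic library, 8 (Efna2, Efnb1, Efnb3, Epha2, Ephb1, Sema3a, Sema5b and Sema6d) had 3 counts or fewer in another, which was so for 1 of 37 in YFP-positive and 1 of 40 in YFP-negative cardiac mesoderm and for 0 of 38 in endoderm. Over all genes that reached 100 counts the shares were 14.96% in hematopoietic mesoderm, 9.30% in YFP-positive cells, 3.48% in YFP-negative cells and 0.518% in endoderm. The part of detection and of this spread in the lower levels was not tested.

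Other genes of the pathway came from lists of genes with known roles, chosen with earlier results of these data known. The shares called are therefore not independent of these data. Of 39 co-receptors and further ligands 29 were tested, and 8 were called among the 4 types (27.6%, beside 6.03% of all genes): Kdr, Nrp2, Lrig2, Met, Gpc4, Flt1, Nrp1 and Flrt3. Against endoderm, 3 were called as higher in cardiac mesoderm and 0 as lower (background 1.34% and 3.18%). Against hematopoietic mesoderm, 2 were higher and 2 lower in cardiac mesoderm (1.26% and 1.32%), and 5 higher and 2 lower in endoderm (3.23% and 2.42%). Kdr is counted among the 8, the 3 higher than endoderm and the 2 lower in endoderm. It was the sort marker of hematopoietic mesoderm, so its calls that involve that type follow from the sort and these counts are inflated by it. Nrp2, a neuropilin that binds class 3 semaphorins and VEGF-C, was at 531, 546 and 660.3 CPM in hematopoietic mesoderm, 125, 283 and 71.2 CPM in YFP-positive cardiac mesoderm, 299, 327 and 332 CPM in YFP-negative cardiac mesoderm and 64.1, 31.98 and 51.1 CPM in endoderm. It exceeded endoderm by 2.20 ± 0.37 on the log2 scale in cardiac mesoderm (edgeR adjusted p = 0.00538) and was higher still in hematopoietic mesoderm, with -1.36 ± 0.32 for cardiac mesoderm (edgeR adjusted p = 0.0450) and -3.56 ± 0.43 for endoderm (edgeR adjusted p = 0.000643). Kdr, a VEGF receptor that partners with neuropilins, was used to sort hematopoietic mesoderm, so its level there is no finding. It averaged 539.9 ± 74.9, 491 ± 48.4, 10.4 ± 5.81 and 777 ± 164 CPM in YFP-positive and YFP-negative cardiac mesoderm, endoderm and hematopoietic mesoderm. Flt1, another VEGF receptor, averaged 143 ± 66.1, 91.7 ± 22.7, 267 ± 35.3 and 474 ± 269 CPM in that order (edgeR adjusted p = 0.0116 for cardiac against hematopoietic mesoderm). Lrig2, a membrane protein that controls shedding of neogenin, averaged 97.9 ± 44.9, 108 ± 14.6, 102 ± 12.3 and 19.9 ± 3.17 CPM (edgeR adjusted p = 0.00735 for the same comparison). The heparan sulfate proteoglycan gene Gpc4 averaged 149 ± 27.4, 31.03 ± 12.8, 292 ± 23.2 and 7.23 ± 10.7 CPM, and endoderm exceeded hematopoietic mesoderm by 5.30 ± 0.94 (edgeR adjusted p = 0.00783). Met, the receptor of hepatocyte growth factor and a partner of plexins, averaged 28.4 ± 7.15 CPM in endoderm and 0.128 ± 0.112 CPM in hematopoietic mesoderm (edgeR adjusted p = 0.00894).

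A further list held genes that act inside the cell below these receptors. Of 63 effectors 57 were tested, and 3 were called among the 4 types: Arhgef15, Rap1a and Rnd1, or 5.26%, near the 6.03% of all genes. Cardiac mesoderm differed from endoderm in 2 (3.51%, beside 4.52%) and from hematopoietic mesoderm in 1 (1.75%, beside 2.58%). Endoderm differed from hematopoietic mesoderm in 6 (10.5%, beside 5.65%), 1 higher (background 3.23%) and 5 lower (2.42%) in endoderm. These 6 were Arhgef15, Cdc42, Ptk2, Rap1a, Tns3 and Usp33. Arhgef15, an exchange factor that binds Eph receptors, was at 183, 111 and 240.0 CPM in hematopoietic mesoderm and at 17.1, 32.2 and 13.3 CPM in YFP-negative cardiac mesoderm, and averaged 33.5 ± 13.6 and 21.2 ± 11.7 CPM in YFP-positive cardiac mesoderm and endoderm. Against hematopoietic mesoderm, cardiac mesoderm differed by -2.75 ± 0.46 (edgeR adjusted p = 0.0101) and endoderm by -3.07 ± 0.60 (edgeR adjusted p = 0.0129). Rap1a, a small GTPase, averaged 205 ± 33.3 CPM in hematopoietic mesoderm and 77.7 ± 13.3 CPM in endoderm (edgeR adjusted p = 0.00817).

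The 12 guidance genes that did not pass the filter were Epha3, Epha5, Epha6, Epha8, Efna1, Sema3c, Sema3g, Sema4a, Sema4f, Plxnb3, Ntn4 and Dcc. In 8 of them no library reached 5 CPM. Epha3 reached the highest CPM of the 12, at 0, 13.9 and 4.997 CPM in YFP-positive cardiac mesoderm and 0 in the YFP-negative and hematopoietic libraries. Sema4f, Sema3c, Epha6, Epha8 and Dcc had counts in endoderm libraries only, of at most 2.73 CPM. No guidance gene was at 0 counts in every library.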

How the data were processed

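The labels' protocols name a NanoPrep RNA kit and NuGEN's Ovation system for low input. Each deposited file gave unnormalized counts, whole numbers for 38924 Ensembl genes and 5 summary categories. STAR 2.5.0a, Picard, HTSeq 0.6.0, DESeq2 and the build mm10 are named, without their roles, in the submitters' processing notes; annotation release and strand setting are not given in the sources used here. Reads in no gene took 34.5% to 43.6% of tallied reads, non-unique alignments 35.1% to 44.8% and genes 18.3% to 21.5%. Non-unique alignments are not in gene counts, so genes with near-identical copies are undercounted.

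Symbols were matched for 37607 genes through a gene name table, and exon lengths and coordinates came from GENCODE M21 (GRCm38). Counts were scaled by TMM, filtered with filterByExpr (14170 genes kept) and tested with edgeR 4.0.16 in R 4.3.3 in 1 model of all 12 libraries, 1 coefficient per type, 8 residual degrees of freedom, two-sided, as an F test over the 4 types and 4 contrasts. In 2 contrasts the cardiac fractions were averaged. DESeq2 1.42.0 and limma 3.58.1 served as alternatives. The standard error is the log2 fold change over the root of the F statistic. Groups and replicate numbers came from sample titles. Names of the deposited files hold the same date-like string for same-numbered libraries. What it marks is not stated, so the number was not taken as pairing, and it was fitted as a block in an alternative. Deviations of same-numbered libraries from their type means correlated at -0.0177 to 0.0319 over all genes tested. With no reference from other pairs, these values cannot exclude something shared by same-numbered libraries. Replicates of a type differed beyond sampling noise (chi-square per degree of freedom 18.3 to 121), and unequally between types. The biological coefficient of variation (spread between replicates beyond sampling noise, relative to the mean) was 1.16 for hematopoietic mesoderm and 0.394 for endoderm. Of the cardiac fractions, the YFP-positive one had 1.00 and the YFP-negative one 0.749. The main model shared its dispersion over all types, so p-values for cardiac against hematopoietic mesoderm also drew on the endoderm libraries.

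Members and lists were chosen with earlier results of these data known. Named were all genes called in any comparison, the 3 of lowest p where fewer than 3 were called, the gene of highest mean CPM in each family, and up to 8 called genes of the other pathway lists; further genes, such as the Slits, Robo2, Sema3e and Ephb4, were named after their values were seen. Scripts were tested on counts simulated with the same dispersion in every type. Of 13970 unchanged genes, edgeR, limma voom and DESeq2 called 2, 2 and 110 among the 4 types. Against endoderm they called 2, 4 and 84. Of 50 genes changed 4-fold in endoderm, they called 9, 7 and 19 among the 4 types. The alternatives are given in the closing section. Intervals (95%, exact) and floors of 3 counts cover counting error only, since amplified reads are not independent molecules.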

Additional observations from a re-analysis of the deposited data

How the results depend on the processing

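No named call reversed direction in any alternative. The counts of guidance genes called among the 4 types and in YFP-positive against YFP-negative cardiac mesoderm, cardiac mesoderm against endoderm, cardiac against hematopoietic mesoderm and endoderm against hematopoietic mesoderm were 12, 0, 7, 9 and 10. DESeq2 gave 22, 1, 13, 16 and 19 (14.9%, 0.888%, 6.66%, 12.4% and 14.4% of all genes with an adjusted p), and these held all of the edgeR calls. Because DESeq2 also called more unchanged genes in simulated counts, its larger counts are no separate support for those calls. Limma voom with quality weights gave 20 against endoderm and 4 for cardiac against hematopoietic mesoderm (17.7% and 1.17% of all genes). For the same comparisons, fitting no libraries beyond those compared gave 15 and 5 (8.33% and 0.764%). The fit of cardiac against hematopoietic mesoderm then lacked the endoderm libraries, which had the least spread between replicates. The part of this unequal spread in the lower count was not tested. Leaving out 1 library gave 5 to 14, 0 to 0, 3 to 7, 5 to 9 and 3 to 11. Other scaling (RLE), no filter on low counts and a minimum mean of 5 CPM left all 5 counts within 1.5 times. With the replicate number as a block they were 9, 0, 6, 8 and 8. The block ended the calls of Epha7, Epha2 and Epha1 among the 4 types (edgeR adjusted p = 0.0785, 0.0552 and 0.0843), Ntn1 against endoderm (0.0608), Robo3 against hematopoietic mesoderm (0.0695 and 0.0689), Efna3 (0.0640) and Sema6d (0.0540). The cause of these shifts was not tested. At the depth of these libraries a gene under 0.380 to 0.671 CPM has 3 counts or fewer, and a difference there was not detectable.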
